A study of Mus musculus with 12 samples.

Results

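Nuclear receptors are transcription factors, many of which are switched by small lipid-soluble ligands such as steroids, thyroid hormone, retinoids, fatty acids and oxysterols. The genes described here are 32 nuclear receptor genes outside the core circadian clock, chosen by symbol from the 27179 mouse genes counted by RNA-seq and placed in 10 receptor classes. They comprise the retinoid X receptors (RXR), the peroxisome proliferator-activated receptors (PPAR), the estrogen-related receptors (ERR), the thyroid hormone receptors, the steroid receptors, the retinoic acid and vitamin D receptors, the liver X receptors (LXR), the NR2 orphan receptors, the NR4A receptors and 3 further orphan receptors. Of the 32 genes, 31 passed the expression filter and were tested. The progesterone receptor gene *Pgr* did not pass, with between 0 and 14 counts per muscle.

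The question was how forced expression of *FRAIL1*, a human long non-coding RNA, changes transcript levels in mouse skeletal muscle. Tibialis anterior (TA) muscles of wild-type male C57BL/6N mice, which arrived at 6 to 8 weeks of age and were used within 2 weeks, were transfected by electroporation with 10 μg of plasmid. The 6 Control muscles received empty pcDNA3.1(+) and the 6 *FRAIL1* muscles received the same plasmid carrying full-length *FRAIL1* under the cytomegalovirus (CMV) promoter, and polyA RNA was sequenced from muscles taken at day 7. The study transfected both legs of each mouse, so a Control and a *FRAIL1* muscle share an animal and the 12 muscles are not independent animals. The CMV promoter is not specific to a cell type and electroporation does not reach every fiber, so the counts are sums over transfected and untransfected cells. *FRAIL1* itself is human and not among the mouse genes counted, so the transfected transcript was not measured here.

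Nuclear receptors share a DNA-binding domain and, in most of them, a ligand-binding domain that exchanges corepressors for coactivators when ligand binds. RXRs are the common partners: PPARs, LXRs, thyroid hormone receptors, retinoic acid receptors and the vitamin D receptor bind DNA as dimers with an RXR, typically at repeats of the motif AGGTCA. In skeletal muscle, PPARs and ERRs are known for fatty acid oxidation and mitochondrial genes, thyroid hormone receptors for fiber type and calcium handling, and the glucocorticoid receptor for protein breakdown.

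The RXR genes carry the main result, so the promoter sequences of *Rxra* and *Rxrg* are shown. Each line gives 250 bases on the plus strand of GRCm38.p6, 5′ to 3′, that end directly before a start site in RefSeq, with AGGTCA or its reverse complement TGACCT in capitals.
*Rxra*, chr2:27676951-27677200: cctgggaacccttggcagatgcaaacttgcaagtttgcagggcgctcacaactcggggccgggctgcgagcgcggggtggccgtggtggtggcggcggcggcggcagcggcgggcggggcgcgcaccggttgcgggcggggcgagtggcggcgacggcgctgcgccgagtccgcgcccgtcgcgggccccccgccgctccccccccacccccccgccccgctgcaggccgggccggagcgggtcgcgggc
*Rxra*, chr2:27709042-27709291: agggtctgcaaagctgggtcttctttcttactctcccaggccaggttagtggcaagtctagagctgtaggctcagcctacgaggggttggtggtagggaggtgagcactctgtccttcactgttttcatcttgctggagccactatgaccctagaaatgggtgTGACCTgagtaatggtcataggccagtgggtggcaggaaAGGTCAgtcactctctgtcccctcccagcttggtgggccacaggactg
*Rxrg*, chr1:167598112-167598361: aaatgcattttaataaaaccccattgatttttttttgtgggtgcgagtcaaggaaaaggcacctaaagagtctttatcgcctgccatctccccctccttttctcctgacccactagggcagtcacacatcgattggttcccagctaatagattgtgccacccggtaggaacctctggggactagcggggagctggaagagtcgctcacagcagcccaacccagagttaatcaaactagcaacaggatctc
*Rxrg*, chr1:167618015-167618264: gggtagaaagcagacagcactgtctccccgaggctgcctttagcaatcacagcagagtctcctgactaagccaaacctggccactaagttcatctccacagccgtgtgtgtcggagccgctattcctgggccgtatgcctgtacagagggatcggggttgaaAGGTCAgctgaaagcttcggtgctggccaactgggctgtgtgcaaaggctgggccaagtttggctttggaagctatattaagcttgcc

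The motif AGGTCA was searched on both strands, without mismatches, in the 250 bases before each start site. Both *Rxra* windows lie inside the gene, since 1 annotated *Rxra* transcript spans the first and 3 span the second, and neither overlaps an annotated *Rxra* exon. The first window, with a GC content of 81.2%, held no match. The second window has a GC content of 55.2%. It held 1 match on the plus strand, whose first base lies 48 bases before the start site, and 1 on the minus strand, whose lowest coordinate lies 87 bases before it. The intragenic *Rxrg* window held 1 match, 88 bases before its start site, and the other *Rxrg* window held none. Over all genes, 4607 of 32851 windows (14.0%) held a match, against 8 of the 49 windows of these receptors. The 30 receptor genes with a window included 7 with a match, which were *Rxra*, *Rxrg*, *Pparg*, *Thrb*, *Rarg*, *Nr5a2* and *Nr6a1*. The median GC content was 61.2% over the receptor windows and 52.4% over all windows. A match describes these letters only and was not tested for binding.

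Each Control muscle had 45018389 to 59309210 counts and each *FRAIL1* muscle 44848322 to 60527385. Levels are given as CPM, counts scaled to library size with TMM factors. The quasi-likelihood test of edgeR compared the groups over all 15502 genes tested, and a gene was called at a Benjamini-Hochberg adjusted p under 0.05. Under this rule 974 genes (6.28%) were called, 687 higher (4.43%) and 287 lower (1.85%) in *FRAIL1* muscles. *FRAIL1* muscle 5 stood apart: it lay at 59.5 on the first principal component, which held 32.4% of the variance, while the other *FRAIL1* muscles lay between -5.92 and 25.8 and the Control muscles between -25.9 and -11.04. Mitochondrial genes took 9.12 to 11.4% of the counts in Control and 6.58 to 9.90% in *FRAIL1* muscles, with muscle 5 at the lower end.

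Among the 31 receptor genes tested, *Rxra* fell in *FRAIL1* muscles by edgeR's test without a block. No other gene passed the threshold in either direction in that fit. DESeq2's Wald test called *Nr1h2* lower as well, and limma voom called *Rxra* alone. With the replicate number as a block, edgeR called *Nr4a1*, *Rxra*, *Rxrg* and *Thrb* lower, among 2186 of the 15502 genes tested. No label ties a number to a mouse. In the edgeR fit without a block, the 1 gene lower of 31 stands beside 1.85% of all genes, and the 0 higher beside 4.43%. At an unadjusted p under 0.05, 7 receptor genes were lower and 0 were higher, where 12.5% of all genes were lower and 15.2% were higher at that level. The 7 genes were *Rxra*, *Rxrb*, *Rxrg*, *Esrra*, *Thra*, *Nr1h2* and *Rora*. Fold changes were below 0 for 23 and above 0 for 8 of the 31 genes (74.2% below 0), while 48.4% of all genes tested were below 0. The median log2 fold change was -0.12 over the receptor genes, with a range from -0.62 to 0.19, and 0.01 over all genes. Without *FRAIL1* muscle 5 the median was -0.10, 23 genes lay below 0, 6 had an unadjusted p under 0.05 and *Rxra* was the 1 gene called. In whole muscle, fewer cells of a type and less RNA per cell cannot be told apart.

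**Figure D1:**
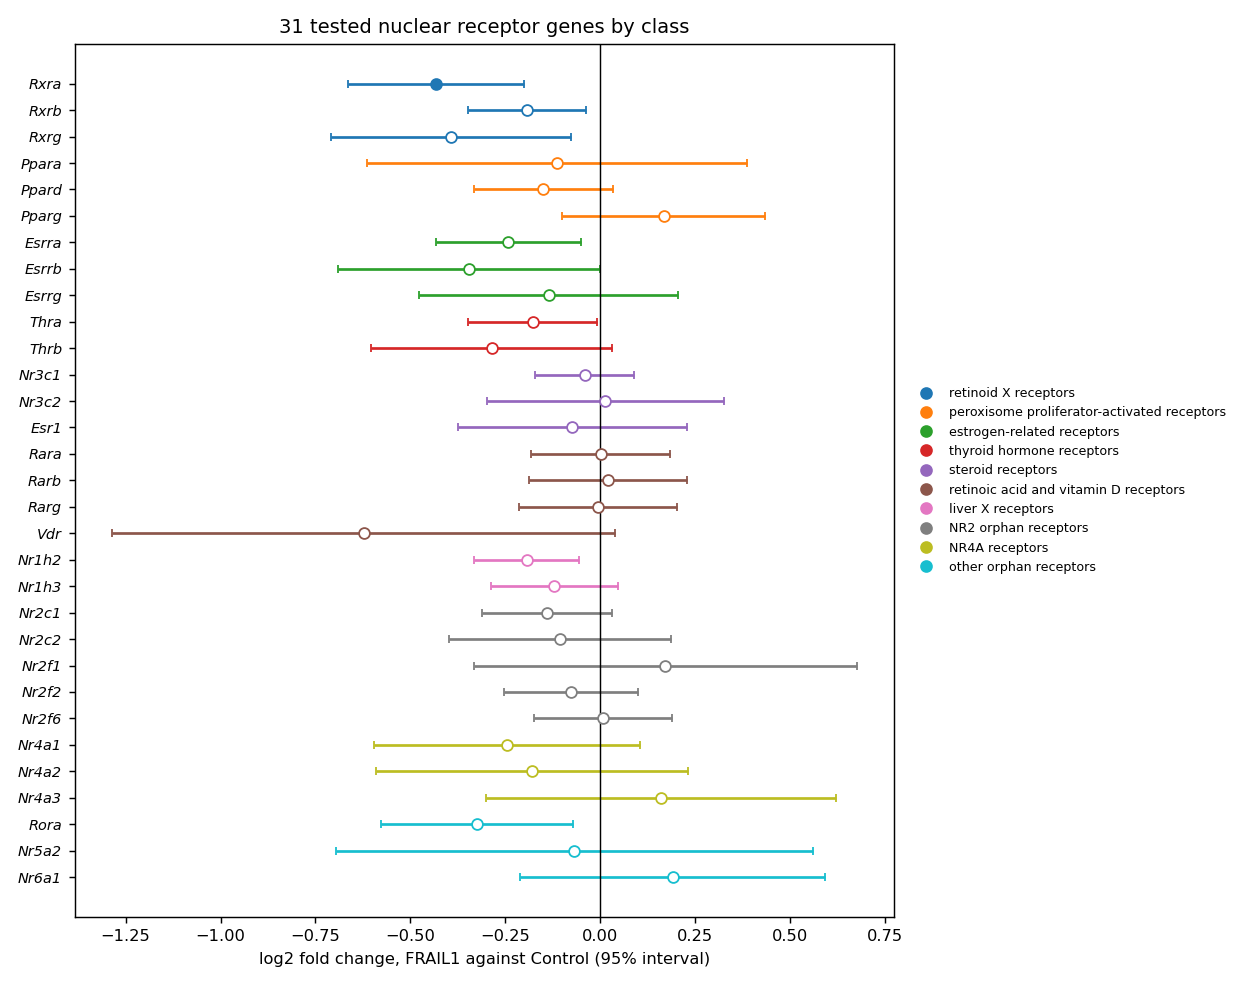
Log2 fold change of *FRAIL1* against Control muscles (x axis) for the 31 tested nuclear receptor genes, in order of class (y axis), with 95% intervals from edgeR's fit. The filled point is *Rxra*, the gene with an adjusted p-value under 0.05, and 7 of the 31 intervals lie wholly below 0.

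Marker genes of some cell types differed between the groups. Summed CPM of 8 muscle fiber markers (*Acta1*, *Ckm*, *Myh4*, *Myh1*, *Ttn*, *Tnnt3*, *Pvalb* and *Mb*) ranged over 132300 to 155000 in Control muscles and 101300 to 139400 in *FRAIL1* muscles. By edgeR 1 of the 8, *Ckm*, was called lower, and 4 were lower and 0 higher at an unadjusted p under 0.05. DESeq2's Wald test and limma voom each called 4 lower, *Ckm*, *Myh4*, *Tnnt3* and *Ttn*. Only *Myh1* had a log2 fold change above 0, at 0.14. The sum of 7 fibroblast markers ranged over 941 to 1792 CPM in Control muscles and 1902 to 4911 CPM in *FRAIL1* muscles, with muscle 5 the highest. Of the 7, 4 (*Col1a1*, *Col3a1*, *Lum* and *Pdgfra*) were higher at an unadjusted p under 0.05 and 0 were called. The collagen genes *Col1a1* (means of 449.2 and 926.7 CPM) and *Col3a1* (731.3 and 1293 CPM) weighed most in the sum. *Dcn*, *Dpt* and *Pi16* had log2 fold changes of 0.02, 0.30 and -0.14. The sum of 8 macrophage markers ranged over 223.9 to 354.1 CPM in Control muscles and 273.9 to 714.5 CPM in *FRAIL1* muscles, with 6 of 8 higher at an unadjusted p under 0.05 and 0 called. The sum of 6 endothelial markers ranged over 396.2 to 466.6 CPM in Control muscles and 318.9 to 416.0 CPM in *FRAIL1* muscles. Of these, 1, *Tek*, was called lower by edgeR and 3 were lower at an unadjusted p under 0.05. DESeq2's Wald test called *Kdr* lower as well, and limma voom called *Pecam1* and *Tek*. The sum of 5 adipocyte markers ranged over 6.87 to 40.2 CPM in Control muscles and 6.71 to 10.1 CPM in *FRAIL1* muscles, with 2 of 5 lower at an unadjusted p under 0.05 and 0 called. The upper Control values came from Control muscles 5 (40.2 CPM) and 6 (18.1 CPM), and the next, Control muscle 3, had 10.4 CPM. Summed levels of 4 satellite cell markers were 39.5 to 46.8 CPM in Control and 46.2 to 60.99 CPM in *FRAIL1* muscles, with 3 of 4 higher at an unadjusted p under 0.05 and 0 called. For 4 Schwann cell markers the sums were 58.5 to 111.4 CPM in Control and 43.3 to 76.4 CPM in *FRAIL1* muscles, and for 6 smooth muscle and pericyte markers 250.6 to 359.6 CPM and 252.7 to 302.0 CPM, with 0 called in either list. At an unadjusted p under 0.05, 1 Schwann cell marker was lower, and 3 smooth muscle and pericyte markers were lower and 1 was higher. For 4 tenocyte markers the sums were 44.2 to 109.0 CPM and 54.1 to 143.3 CPM, with 1, *Scx*, called higher. No marker in these lists was at 0 in every muscle. Of the lists with 0 called by edgeR, DESeq2's Wald test called 5 macrophage, 2 fibroblast and 2 satellite cell markers higher and 1 Schwann cell and 1 pericyte marker lower, and limma voom called 2 macrophage markers and 1 fibroblast marker higher and 1 pericyte marker lower. The part of these shifts in the receptor values below was not tested.

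The levels of the receptor mRNAs differed widely, and comparisons between genes are given per kilobase of exon. In Control muscles *Nr4a1* (43.5 ± 8.93 CPM per kilobase, SD, n = 6), *Rxra* (41.0 ± 1.33), *Esrra* (33.7 ± 3.17) and *Rxrg* (30.2 ± 5.22) had the highest levels. *Nr4a1* and *Rxra* did not separate, since the range of *Nr4a1* (30.9 to 52.6) held that of *Rxra* (39.3 to 42.8). The lowest *Rxra* value lay above the highest of *Esrra* (37.6), and *Esrra* and *Rxrg* overlapped. After a gap followed *Thra* (17.3 ± 1.24), *Nr1h2* (15.4 ± 0.648) and *Rxrb* (13.3 ± 1.15), whose neighbors overlapped, and after the next gap *Nr1h3* (8.41 ± 0.548), *Nr3c1* (7.85 ± 0.432) and *Nr2f6* (7.41 ± 1.04), which also overlapped. From *Ppard* (4.87 ± 0.236) to *Nr3c2* (0.870 ± 0.199) 12 genes formed a run in which each overlapped the next, and from *Esr1* (0.511 ± 0.0859) to *Vdr* (0.0961 ± 0.0223) 9 genes formed another. *Pgr* was the lowest, at 0.0131 ± 0.00434.

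**Figure D2:**
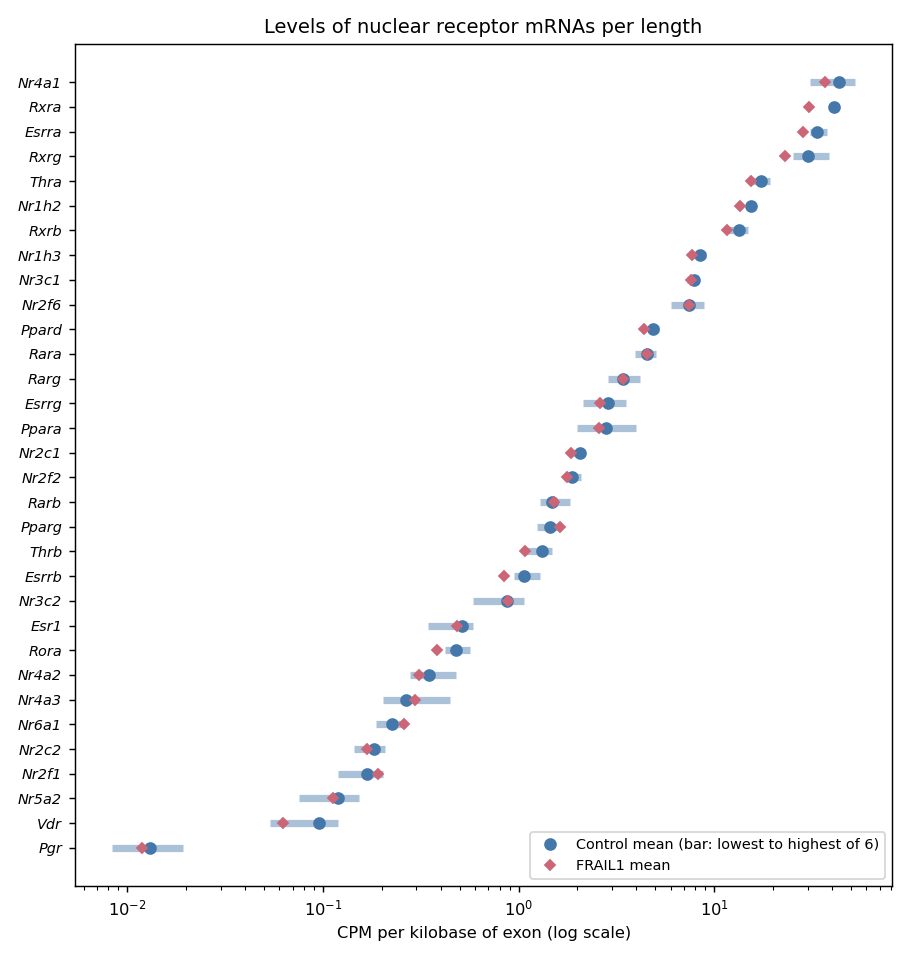
CPM per kilobase of exon (x axis, log scale) for the 32 nuclear receptor genes, ranked by their Control mean (y axis). Circles are Control means with bars from the lowest to the highest of 6 muscles, and diamonds are *FRAIL1* means. *Nr4a1*, *Rxra*, *Esrra* and *Rxrg* have Control means above 30 and *Pgr* is the lowest gene.

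RXRs are the dimer partners of PPARs, LXRs, thyroid hormone receptors, retinoic acid receptors and the vitamin D receptor, and all 3 RXR genes had lower means in *FRAIL1* muscles. *Rxra* (Gene ID 20181, chromosome 2 of GRCm38, 27676445 to 27763319) had a lowest, median and highest value of 214.4, 224.8 and 233.6 CPM in Control and of 109.6, 167.7 and 201.6 CPM in *FRAIL1* muscles. The highest *FRAIL1* value lay below the lowest Control value, a separation found for 1 of the 31 receptor genes and for 1.77% of all genes. *Rxra* fell by 0.43 on the log2 scale (SE 0.109, 95% interval -0.67 to -0.20, adjusted p = 0.0335 by edgeR), a mean 25.9% lower. The spread was wider in the *FRAIL1* muscles, with a coefficient of variation of 19.2% against 3.24% in Control muscles.

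*FRAIL1* muscle 5 held the lowest *Rxra* value and the fall did not rest on it. Without muscle 5 the log2 fold change of *Rxra* was -0.34, with an adjusted p of 0.00537 by edgeR. The call itself was less steady: of the 12 fits that each left out a muscle it held in 3, those without *FRAIL1* muscle 2, 3 or 5. The adjusted p by edgeR ranged up to 0.071, without Control muscle 1, where the log2 fold change was -0.42. Each of these fits had a smaller group, and between 364 and 2110 genes were called in them. Over all 23 alternative settings the log2 fold change lay between -0.50 and -0.34 and 14 kept the call.

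*Rxrg* (Gene ID 20183), the RXR gene whose transcript is enriched in muscle and brain, had values of 58.2, 65.9 and 88.8 CPM (lowest, median, highest) in Control and 37.5, 54.3 and 72.1 CPM in *FRAIL1* muscles. All *FRAIL1* muscles except muscle 1 lay below the lowest Control muscle, but *FRAIL1* muscle 1 lay within the Control range. Its log2 fold change was -0.39 (SE 0.147, adjusted p = 0.108 by edgeR). *Rxrb* (Gene ID 20182), the broadly expressed form, had values of 47.0, 52.5 and 59.2 CPM in Control and 40.1, 47.5 and 52.1 CPM in *FRAIL1* muscles. The ranges overlapped, with 2 *FRAIL1* muscles below the lowest Control muscle, and the log2 fold change was -0.19 (SE 0.0732, adjusted p = 0.107 by edgeR).

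The summed level of the 3 RXR mRNAs was 84.5 ± 7.18 CPM per kilobase (SD, n = 6, range 77.4 to 96.4) in the Control group and 65.0 ± 10.6 CPM per kilobase (SD, n = 6, range 46.5 to 74.3) in *FRAIL1* muscles, so the ranges of the sum did not overlap. In the make-up of the sum, *Rxra* held 48.7 ± 2.84% of it in Control and 46.7 ± 4.18% in *FRAIL1* muscles, *Rxrg* held 35.5 ± 3.04% and 35.2 ± 3.63%, and *Rxrb* held 15.8 ± 0.953% and 18.1 ± 1.84%. The sum and shares are descriptions and were not tested.

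**Figure D3:**
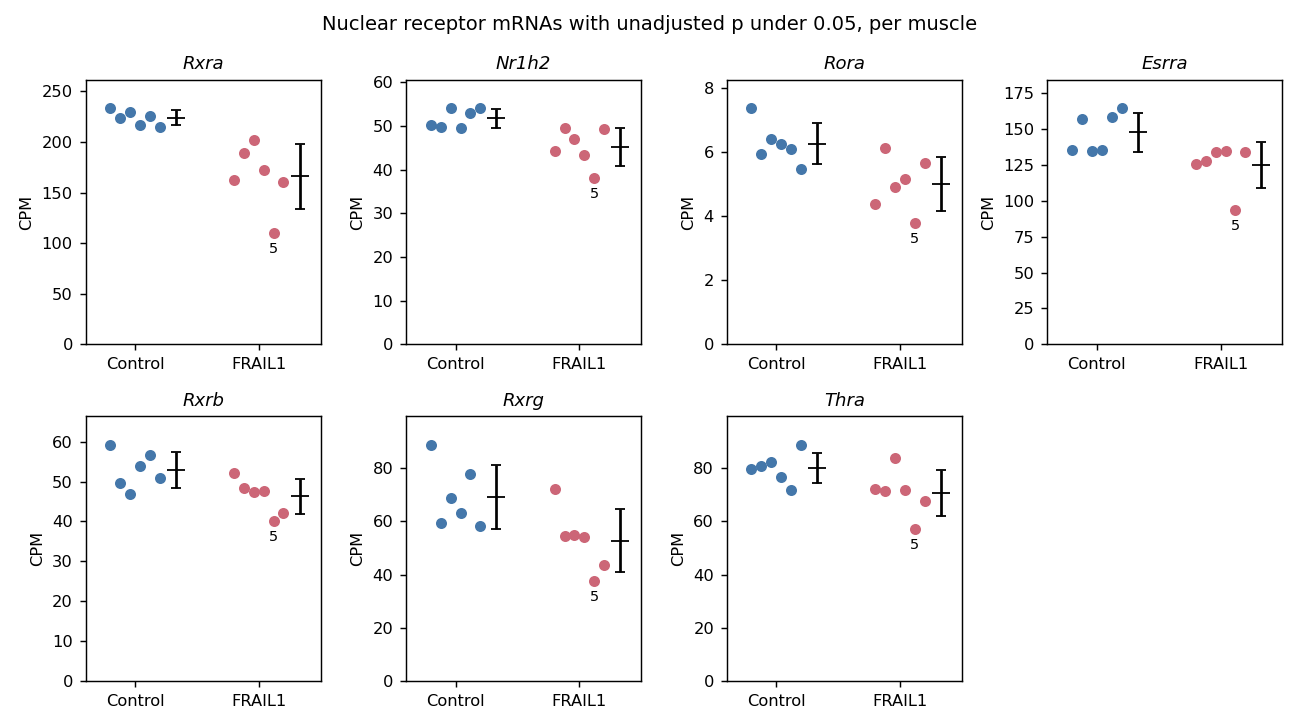
CPM in each muscle (y axis, from 0) for the 7 nuclear receptor genes with an unadjusted p under 0.05, Control and *FRAIL1* muscles side by side (x axis), with mean and SD at the right of each group and *FRAIL1* muscle 5 marked. Only for *Rxra* do all *FRAIL1* muscles lie below all Control muscles, and muscle 5 is the lowest *FRAIL1* muscle in every panel.

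ERRs are orphan receptors that act with PGC-1 coactivators on mitochondrial genes, and their 3 genes had fold changes below 0 with a class median of -0.24. *Esrra* (Gene ID 26379) had a lowest, median and highest value of 134.8, 146.6 and 164.8 CPM in Control and of 93.6, 130.9 and 134.9 CPM in *FRAIL1* muscles. The groups met at 134.8 and 134.9 CPM, and 5 *FRAIL1* muscles lay below the lowest Control muscle. The log2 fold change of *Esrra* was -0.24 (SE 0.0900, adjusted p = 0.102 by edgeR). *Esrrb* measured 6.48 ± 0.747 CPM in Control and 5.10 ± 1.30 CPM in *FRAIL1* muscles (SD, n = 6 each), with a 95% interval of the log2 fold change from -0.69 to 0.00, and *Esrrg* 17.7 ± 3.19 and 16.2 ± 3.81 CPM (SD, n = 6 each), with an interval from -0.48 to 0.21. *Esrra* held 89.6 ± 1.24% of the ERR mRNA per length in Control and 89.3 ± 1.45% in *FRAIL1* muscles.

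Thyroid hormone receptors bind triiodothyronine, and both of their genes had lower means in *FRAIL1* muscles. *Thra* (Gene ID 21833), which encodes the main form in muscle, had values of 71.6, 80.2 and 88.8 CPM (lowest, median, highest) in Control and 57.2, 71.8 and 83.9 CPM in *FRAIL1* muscles. The ranges overlapped, with 3 *FRAIL1* muscles within the Control range and 3 below it. The log2 fold change of *Thra* was -0.18 (SE 0.0795, adjusted p = 0.162 by edgeR), and 5.70% of its exon bases are shared with *Nr1d1* on the opposite strand. *Thrb* measured 9.74 ± 1.33 CPM (SD, n = 6) and 7.99 ± 1.95 CPM (SD, n = 6), with a log2 fold change of -0.29 (95% interval -0.60 to 0.03). *Thra* held 93.0 ± 0.588% of the mRNA of this class per length in Control and 93.5 ± 1.16% in *FRAIL1* muscles.

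LXRs sense oxysterols and control cholesterol efflux genes. *Nr1h2*, the gene of LXRβ (Gene ID 22260), had values of 49.5, 51.6 and 54.1 CPM in Control and of 38.1, 45.6 and 49.6 CPM in *FRAIL1* muscles. Only *FRAIL1* muscle 2 reached the Control range, and the other 5 lay below it. The log2 fold change of *Nr1h2* was -0.19 (SE 0.0646, adjusted p = 0.0756 by edgeR). *Nr1h3*, the gene of LXRα, measured 21.2 ± 1.38 CPM in Control and 19.5 ± 2.29 CPM in *FRAIL1* muscles (SD, n = 6 each), with a 95% interval of the log2 fold change from -0.29 to 0.05.

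PPARs bind fatty acids and their derivatives. *Ppard*, the PPAR gene with the highest level in these muscles, measured 36.6 ± 1.77 CPM in Control and 32.96 ± 4.93 CPM in *FRAIL1* muscles (SD, n = 6 each), with a 95% interval of the log2 fold change from -0.33 to 0.03. *Ppara* measured 10.7 ± 2.73 and 9.89 ± 3.57 CPM (SD, n = 6 each), with an interval from -0.61 to 0.39, and its log2 fold change of -0.11 turned to 0.01 without *FRAIL1* muscle 5 or without Control muscle 6. *Pparg*, the form that drives fat cell formation, measured 4.28 ± 0.539 and 4.81 ± 0.780 CPM (SD, n = 6 each), with an interval from -0.10 to 0.43.

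Steroid receptors bind steroid hormones, and the 3 genes of this class that were tested had fold changes between -0.07 and 0.01. The glucocorticoid receptor gene *Nr3c1* measured 60.3 ± 3.32 CPM in Control and 58.7 ± 4.58 CPM in *FRAIL1* muscles (SD, n = 6 each), and its 95% interval, from -0.17 to 0.09, was the narrowest of the 31. The mineralocorticoid receptor gene *Nr3c2* measured 5.63 ± 1.29 and 5.69 ± 0.741 CPM (SD, n = 6 each), and the estrogen receptor gene *Esr1* measured 6.99 ± 1.17 and 6.64 ± 1.28 CPM (SD, n = 6 each). *Pgr* measured 0.112 ± 0.0371 and 0.102 ± 0.0996 CPM (SD, n = 6 each) and was too low to test.

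Retinoic acid receptors bind all-trans retinoic acid, and their 3 genes had fold changes between -0.01 and 0.02. *Rara* measured 19.8 ± 2.09 and 19.9 ± 2.27 CPM (SD, n = 6 each), with a 95% interval of the log2 fold change from -0.18 to 0.18, and *Rarg* 14.6 ± 1.98 and 14.5 ± 1.70 CPM (SD, n = 6 each), with an interval from -0.21 to 0.20. *Rarb* measured 7.84 ± 0.979 and 7.95 ± 0.840 CPM (SD, n = 6 each), and 38.4% of its exon bases are shared with other genes, chiefly *Top2b* on the opposite strand. The vitamin D receptor gene *Vdr* had the lowest fold change of all 31 genes, -0.62, with between 8 and 33 counts per muscle. It measured 0.543 ± 0.126 and 0.353 ± 0.146 CPM (SD, n = 6 each), and its 95% interval, from -1.29 to 0.04, was the widest.

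NR4A receptors are immediate early transcription factors that act without a known physiological ligand and are induced by exercise. *Nr4a1* (Nur77), whose level per length did not separate from that of *Rxra*, measured 152.6 ± 31.3 CPM in Control and 128.7 ± 27.6 CPM in *FRAIL1* muscles (SD, n = 6 each). Its log2 fold change was -0.25 (SE 0.162, adjusted p = 0.345 by edgeR without a block), and the groups overlapped. With the replicate number as a block, edgeR and DESeq2's Wald test each called *Nr4a1* lower, but no label ties a number to a mouse. *Nr4a2* measured 1.42 ± 0.332 and 1.25 ± 0.268 CPM and *Nr4a3* 1.59 ± 0.552 and 1.77 ± 0.380 CPM (SD, n = 6 each). *Nr4a1* held 98.5 ± 0.648% of the NR4A mRNA per length in Control and 98.3 ± 0.322% in *FRAIL1* muscles.

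*Rora*, whose protein is known to raise transcription of the clock gene *Arntl*, had a lowest, median and highest value of 5.48, 6.19 and 7.39 CPM in Control and of 3.78, 5.04 and 6.13 CPM in *FRAIL1* muscles. Its groups overlapped, with 4 *FRAIL1* muscles below the lowest Control muscle, and the log2 fold change was -0.32 (SE 0.119, adjusted p = 0.0978 by edgeR). The NR2 orphan receptors *Nr2c1*, *Nr2c2*, *Nr2f1*, *Nr2f2* and *Nr2f6* had fold changes between -0.14 and 0.17, with every 95% interval including 0. Of these, *Nr2f6* and *Nr2c2* share 54.4% and 31.2% of their exon bases with genes on the opposite strand, chiefly *Ocel1* and *Mrps25*, and a strand setting for the counting is not given in the sources used here. *Nr5a2* and *Nr6a1* measured 0.702 ± 0.168 and 2.46 ± 0.362 CPM (SD, n = 6 each) in Control and 0.667 ± 0.298 and 2.80 ± 0.777 CPM (SD, n = 6 each) in *FRAIL1* muscles.

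*FRAIL1* muscle 5 was the lowest of all 12 muscles for 15 of the 31 receptor genes, whereas it was the lowest for 23.3% of all genes, and it was the highest for 2 of the 31. This is also the muscle with the lowest sum of fiber markers and the highest sum of fibroblast markers, and the part of either in its receptor levels was not tested. The coefficient of variation was larger in *FRAIL1* than in Control muscles for 25 of the 31 genes, with medians of 16.2% and 12.7%. It was not counted over all genes, so a wider spread is not shown to be particular to the receptor genes. Over all genes, *FRAIL1* muscle 5 was the lowest for 23.3% and the highest for 23.3%.

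**Figure D4:**
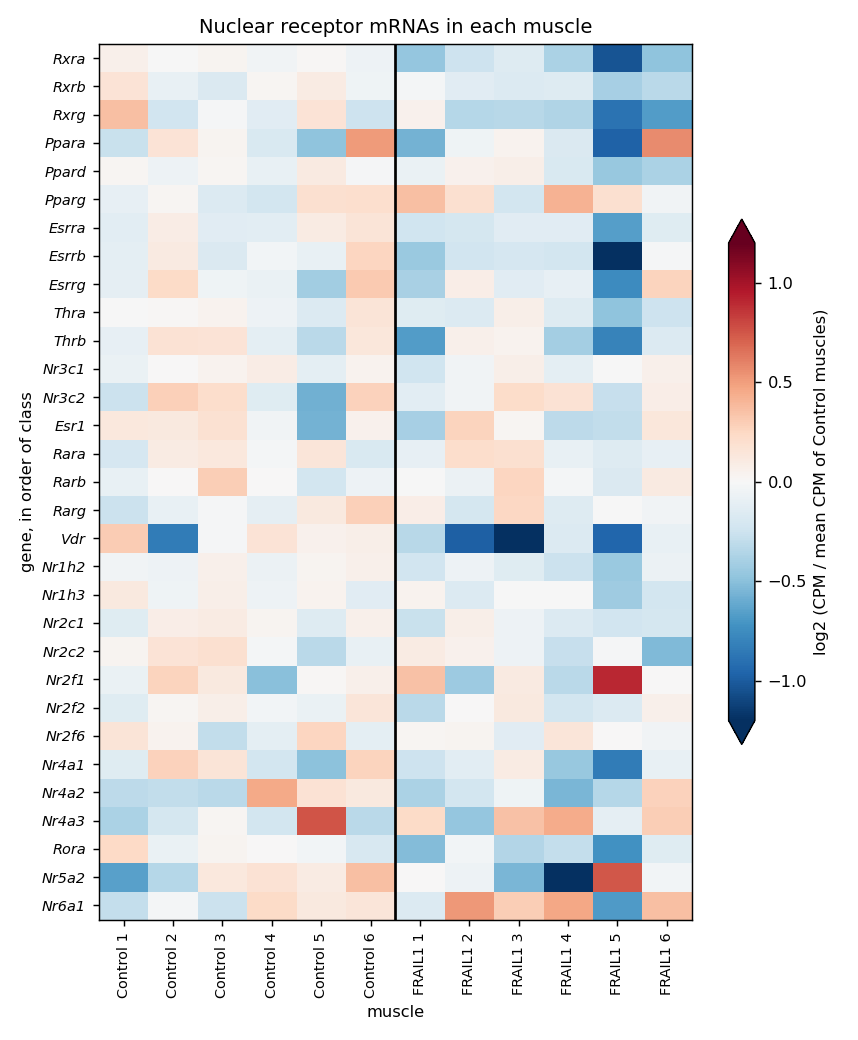
Log2 of the CPM in each muscle over the Control mean (color) for the 31 tested nuclear receptor genes (y axis, in order of class) in the 6 Control and 6 *FRAIL1* muscles (x axis). Blue is below and red above the Control mean, and the darkest colors also hold values beyond the scale. *FRAIL1* muscle 5 is the lowest muscle for 15 of the 31 genes, among them all 3 RXR and all 3 ERR genes.

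Coregulators carry the action of the receptors to chromatin. Of 13 coactivator genes tested, 1 fell and 0 rose by edgeR, where 1.85% of all genes fell and 4.43% rose. The median log2 fold change was -0.14 against 0.01 over all genes, and 6 were lower at an unadjusted p under 0.05. The gene that fell was *Ep300*, a histone acetyltransferase, at 36.9 ± 3.19 CPM in Control and 30.5 ± 2.74 CPM in *FRAIL1* muscles (SD, n = 6 each) (log2 fold change -0.27, adjusted p = 0.0384 by edgeR). Of 9 corepressor genes 0 passed the threshold by edgeR, DESeq2's Wald test or limma voom, with 4 lower at an unadjusted p under 0.05 and a median of -0.07. The corepressor scaffold gene *Ncor1* measured 99.9 ± 3.86 and 90.8 ± 5.52 CPM (SD, n = 6 each), with an adjusted p of 0.118 by edgeR, and *Hdac3* and *Tbl1x*, which encode its partners, had adjusted p-values of 0.143 and 0.147. Of 10 genes of the chaperones that hold steroid receptors ready for ligand, 1 fell, *Fkbp4*, at 172.8 ± 8.59 and 143.1 ± 16.3 CPM (SD, n = 6 each, adjusted p = 0.0469 by edgeR). In the 12 fits without a muscle, the calls of *Ep300* and *Fkbp4* held in 4 and 2, with adjusted p-values of up to 0.0882 without Control muscle 1 and 0.0876 without Control muscle 3.

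The list of genes that transport, make or break down ligands held 25 genes, of which 17 were tested. By edgeR 1 fell and 0 rose, where 1.85% of all genes fell and 4.43% rose. The median log2 fold change was -0.10, with 6 lower and 0 higher at an unadjusted p under 0.05. DESeq2's Wald test called 4 lower (*Aldh1a1*, *Fabp4*, *Hsd11b1* and *Slc16a10*) and limma voom 3 (*Aldh1a1*, *Fabp4* and *Slc16a10*). The gene that fell by edgeR was *Slc16a10* (MCT10), which encodes a transporter of thyroid hormone and aromatic amino acids. It fell from 68.7 ± 5.63 to 54.4 ± 7.39 CPM (SD, n = 6 each, log2 fold change -0.34, adjusted p = 0.0381 by edgeR). In the 12 fits without a muscle its call held in 5, and without Control muscle 1 the adjusted p-value was 0.0871.

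Targets of the receptors were taken from general knowledge of each class, with earlier results of these data known. Of 12 thyroid hormone target genes 2 rose and 1 fell by edgeR, with a median of -0.18, where 4.43% of all genes rose and 1.85% fell. At an unadjusted p under 0.05, 2 were higher and 5 were lower. DESeq2's Wald test and limma voom each called 2 higher and 4 lower, the lower ones being *Atp2a1*, *Gpd2*, *Me1* and *Slc2a4*. *Atp2a2*, the gene of the slow-fiber calcium pump SERCA2, rose from 75.9 ± 2.58 to 141.4 ± 43.8 CPM (SD, n = 6 each, log2 fold change 0.90, adjusted p = 0.0077 by edgeR). *Thrsp*, a thyroid hormone-responsive gene of lipid synthesis, rose from 17.0 ± 1.80 to 32.4 ± 11.9 CPM (SD, n = 6 each, log2 fold change 0.93, adjusted p = 0.0208 by edgeR). For both genes the 6 *FRAIL1* muscles lay above the 6 Control muscles, as for 3.12% of all genes. *Gpd2*, the mitochondrial glycerol-3-phosphate dehydrogenase gene, fell from 243.3 ± 26.7 to 166.2 ± 42.6 CPM (SD, n = 6 each, log2 fold change -0.55, adjusted p = 0.0464 by edgeR), and its call held in 3 of the 12 fits without a muscle, with an adjusted p of up to 0.093, without Control muscle 3.

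Of 11 LXR target genes 4 rose and 0 fell by edgeR, where 4.43% of all genes rose and 1.85% fell. The median log2 fold change was 0.10, although the means of both LXR genes were lower. *Abca1*, a cholesterol exporter gene, rose from 14.4 ± 1.83 to 27.2 ± 7.98 CPM (SD, n = 6 each, log2 fold change 0.92, adjusted p = 0.0124 by edgeR), with no overlap between the groups. *Apoe*, the apolipoprotein E gene, rose from 268.2 ± 46.4 to 687.5 ± 322.8 CPM (SD, n = 6 each, log2 fold change 1.36, adjusted p = 0.0203 by edgeR), also with no overlap. Such an upward separation was found for 3.12% of all genes. *Abcg1*, another cholesterol exporter gene, rose from 10.7 ± 1.36 to 21.4 ± 8.23 CPM (SD, n = 6 each, adjusted p = 0.0329 by edgeR), and *Pltp*, the phospholipid transfer protein gene, from 29.9 ± 4.09 to 40.5 ± 7.91 CPM (SD, n = 6 each, adjusted p = 0.0481 by edgeR). The calls of *Abca1* and *Apoe* held in all 12 fits without a muscle, although without both muscles numbered 5 that of *Apoe* did not (adjusted p = 0.0538 by edgeR), and those of *Abcg1* and *Pltp* held in 3 each, with adjusted p-values of up to 0.0702 without Control muscle 3 and 0.0969 without *FRAIL1* muscle 1. Macrophages express these 4 genes too, and the macrophage marker sums given above were higher in the same group. The part of that shift was not tested. *Srebf1*, *Fasn*, *Scd1* and *Scd2*, lipid synthesis genes of the list, had log2 fold changes of -0.20, -0.08, 0.54 and 0.10. Their adjusted p-values by edgeR were 0.314, 0.68, 0.118 and 0.545. DESeq2's Wald test called *Scd1* higher, and limma voom did not.

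Of 13 ERR target genes 0 passed the threshold by edgeR, and 1, *Vegfa*, was called lower by DESeq2's Wald test (adjusted p = 0.0208) and by limma voom (adjusted p = 0.031). All 13 had fold changes below 0, from -0.35 to -0.09, with a median of -0.16, and 4 were lower at an unadjusted p under 0.05. *Vegfa*, *Perm1* and *Sod2* had the smallest adjusted p-values in this list, 0.0674, 0.124 and 0.144 by edgeR. *Perm1*, an ERR-regulated activator of muscle mitochondrial genes, measured 323.6 ± 27.4 and 254.2 ± 58.9 CPM (SD, n = 6 each). Of 21 PPAR target genes 0 passed by edgeR, DESeq2's Wald test or limma voom, with 1 higher at an unadjusted p under 0.05, 16 fold changes below 0 and a median of -0.11, and *Angptl4*, an inhibitor of lipoprotein lipase, had the smallest unadjusted p, at 3.78 ± 1.23 and 6.43 ± 2.68 CPM (SD, n = 6 each, adjusted p = 0.167 by edgeR). The fatty acid oxidation gene *Acadm* and the lipid droplet gene *Plin2* followed, with log2 fold changes of -0.22 and 0.22.

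Of 19 glucocorticoid target genes 1 fell and 0 rose by edgeR, with a median of -0.14, where 1.85% of all genes fell and 4.43% rose. At an unadjusted p under 0.05, 5 were lower and 1 was higher. DESeq2's Wald test and limma voom each called 3 lower, *Mstn*, *Tsc22d3* and *Zbtb16*. By edgeR the gene that fell was *Zbtb16* (PLZF), a transcription factor gene, at 60.2 ± 6.69 and 45.7 ± 5.33 CPM (SD, n = 6 each, log2 fold change -0.40, adjusted p = 0.0208 by edgeR). Its call held in 11 of the 12 fits without a muscle, with an adjusted p of 0.0501 by edgeR without *FRAIL1* muscle 1. Of 9 NR4A target genes, which include genes of glucose and glycogen use, 1 fell by edgeR, the phosphorylase kinase gene *Phkg1*, at 503.2 ± 19.1 and 379.1 ± 74.9 CPM (SD, n = 6 each, adjusted p = 0.0469 by edgeR), and the median was -0.23. DESeq2's Wald test and limma voom called *Pygm* and *Slc2a4* lower as well. The call of *Phkg1* held in 3 of the 12 fits, with an adjusted p of up to 0.088, without Control muscle 3. Of 9 other immediate early genes 0 passed by edgeR and 1, *Junb*, was called higher by DESeq2's Wald test and by limma voom, with 1 higher at an unadjusted p under 0.05, 8 fold changes above 0, a median of 0.12 and the smallest adjusted p, 0.057, for *Junb*, before *Egr2* and *Atf3* with log2 fold changes of 0.41 and 0.44. Of 7 retinoic acid target genes 5 were tested and 0 passed by edgeR, DESeq2's Wald test or limma voom, with 0 in either direction at an unadjusted p under 0.05 and a median of -0.14. *Tgm2*, *Stra6* and *Dhrs3* had the smallest p-values there, with log2 fold changes of -0.14, -0.40 and 0.04 and adjusted p-values of 0.351, 0.435 and 0.901 by edgeR.

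**Figure D5:**
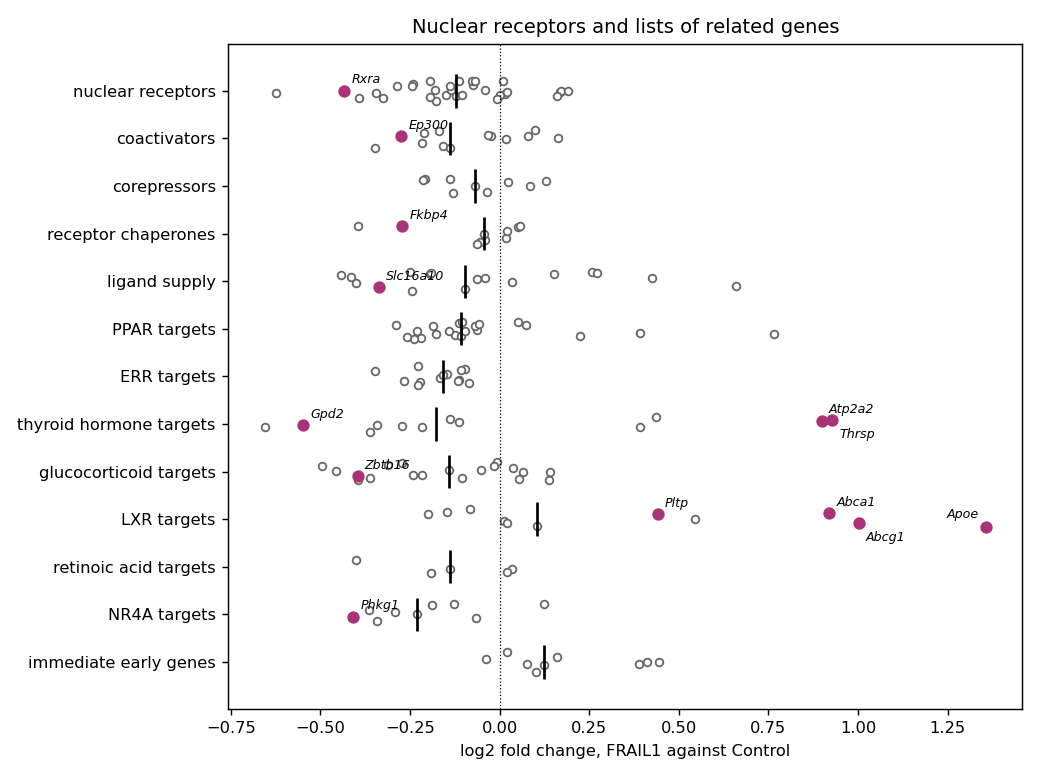
Log2 fold change of *FRAIL1* against Control muscles (x axis) for the nuclear receptor genes and 12 lists of related genes (y axis). Each point is a gene, filled and named where its adjusted p-value was under 0.05, and the vertical bars are list medians. All 13 ERR targets lie below 0, and the 4 LXR targets that passed the threshold lie above 0.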

How the data were processed

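PolyA RNA of 12 TA muscles, 6 Control and 6 *FRAIL1*, was analysed as raw counts. According to the methods of the study, the authors trimmed paired-end reads with Trimmomatic, mapped them to mm10 with STAR 2.7.8a and deposited counts of reads that mapped uniquely to annotated genes, made with featureCounts 2.0.1, without normalization. The deposited table holds whole-number counts for 27179 NCBI Gene IDs. A symbol was found for 25275 of them, and IDs without a symbol took 0.280% of the counts. No pair of libraries held the same counts. Gene positions and promoter windows came from RefSeq, and exon lengths and exon overlaps from the GENCODE annotation of GRCm38, the build of mm10.

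In R 4.3.3, edgeR 4.0.16 was used for the filter (filterByExpr), the TMM factors and a robust, two-sided quasi-likelihood test without a block. Intervals are the log2 fold change ± its standard error times the t quantile of the fit. TMM factors were 0.935 to 0.983 in Control and 0.965 to 1.19 in *FRAIL1* muscles. The receptor genes, their classes, the lists of related genes and the markers were chosen with earlier results of these data known. Values in single muscles are described for receptor genes with an adjusted or unadjusted p under 0.05 or without overlap between groups. From each list the called genes are named or, with none called, the 3 with the smallest p. *Srebf1*, *Fasn*, *Scd1* and *Scd2* were chosen after their values were seen. The labels do not say which muscles share a mouse, so p-values measure the spread between muscles. The depth limits mainly *Pgr* and *Vdr*. Alternatives were DESeq2 1.42.0 with and without the replicate number as a block, limma 3.58.1 voom with quality weights, other scalings and filters, a fit that was not robust, and each muscle left out in turn. No gene set test was run, and the proteins of the study were not analysed here. Some genes of the lists are not reported here and were left out of their counts and medians.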

Additional observations from a re-analysis of the deposited data

Results flagged for a closer look

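In 4 of the 64 groups of 6 muscles (32 receptor genes in 2 groups), 1 muscle lay apart from the other 5 by a larger part of the group's range than Dixon's critical value allows, and chance gives about 1 in 20 groups. *Esrra* was 93.6 CPM in *FRAIL1* muscle 5, with the other *FRAIL1* muscles between 125 and 135 CPM. *Esr1* was 4.73 CPM in Control muscle 5, with the others between 6.80 and 7.95 CPM. *Nr4a3* was 2.68 CPM in the same Control muscle, with the others between 1.22 and 1.61 CPM. *Vdr* was 0.303 CPM in Control muscle 2, with the others between 0.538 and 0.672 CPM. The cause of these values was not tested.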

How the results depend on the processing

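The number of genes called, 974 at first, was 2186 with the replicate block in edgeR, 2196 with DESeq2's Wald test, 2868 with that test and the block and 1756 with limma voom, and with each muscle left out it lay between 364 and 2110. Receptor genes called lower, 1 at first, were 4 with the replicate block (*Nr4a1*, *Rxra*, *Rxrg* and *Thrb*), 2 with DESeq2's Wald test (*Nr1h2* and *Rxra*), 7 with that test and the block (*Esrra*, *Esrrb*, *Nr1h2*, *Nr4a1*, *Rxra*, *Rxrg* and *Thrb*) and 0 to 3 with each muscle left out. The count was 0 without any 1 Control muscle and without *FRAIL1* muscle 1, 4 or 6, it was 3 without muscle 2 (*Nr1h2*, *Rora* and *Rxra*) and 2 without muscle 3 (*Rxra* and *Thra*). Receptor genes called higher numbered 0 in every setting. With the replicate block in edgeR 2 ERR targets, *Sod2* and *Vegfa*, and 5 glucocorticoid targets were called lower, and of the PPAR targets 1 was called higher and 2 lower. With DESeq2's Wald test and the block 6 ERR targets (*Ckmt2*, *Idh3a*, *Mfn2*, *Perm1*, *Sod2* and *Vegfa*) and 8 glucocorticoid targets were called lower. Of the PPAR targets 1 was then called higher and 3 lower. The other scalings (upper-quartile, DESeq2's size factors, TMM without mitochondrial and top genes), both other filters, the fit that was not robust and leaving out both muscles numbered 5 called 758 to 1097 genes and 1 receptor gene, *Rxra*. Calls that were lower made up 29.5% at first, 47.0% with the block, 42.3% with DESeq2's Wald test, 46.3% with limma voom and 40.6% without *FRAIL1* muscle 5.

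The replicate numbers were not taken as pairs. Deviations from the group means correlated between muscles of the same number at 0.254, 0.162, 0.282, 0.263, 0.0547 and 0.185 for numbers 1 to 6, with a mean of -0.04 between different numbers, and the muscles numbered 1 to 4 and 6 correlated best with their own number, which is a hint from the data and not from the design. Block results therefore show another fit and not a paired test.

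Of 1332 comparisons over 58 single genes, 1179 kept direction and side of the threshold, 79 lost the call, 34 gained it and 40 turned direction. The reversed genes were all near 0 or imprecise. With both muscles numbered 5 left out, *Nr3c2* was -0.0271, *Rarg* 0.0151 and *Nr2f1* -0.0322, and *Nr2f1* was -0.0369 with limma voom. *Rara* was -0.0055 with DESeq2's size factors, -0.00049 with TMM without mitochondrial and top genes, -0.00537 with DESeq2's Wald test, -0.00604 with that test and the block and -0.0118 with limma voom. With each muscle left out, the log2 fold change ranged from -0.301 to 0.0143 for *Ppara*, from -0.0771 to 0.0791 for *Nr3c2*, from -0.0463 to 0.0313 for *Rara*, from -0.0318 to 0.0887 for *Rarb*, from -0.064 to 0.0589 for *Rarg*, from -0.0343 to 0.266 for *Nr2f1*, from -0.0445 to 0.0654 for *Nr2f6*, from -0.307 to 0.0849 for *Nr5a2* and from -0.0652 to 0.112 for *Dhrs3*. Apart from smaller groups in these fits, the cause of the changes was not tested.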
